A study of Mus musculus with 6 samples.

Results

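Cholesterol and fatty acid synthesis genes were followed in whole mouse lung 90 days after silica. The genes are 37 symbols chosen by their known role: 5 regulators of SREBP (the sterol regulatory element binding proteins), 16 enzymes of sterol synthesis, 11 enzymes that make, elongate or desaturate fatty acids, and 5 genes of sterol efflux and traffic. All 37 were found by symbol among the 17973 mRNAs of the count table, and all 37 passed the filter on low counts that left 15808 mRNAs. Lungs of C57BL/6 mice gave 6 libraries of total RNA, 3 labelled control (C7, C8 and C9) and 3 labelled silicosis (N129, N136 and N138). Silicosis is the scarring lung disease caused by crystalline silica, here modelled by 8 mg of silica placed in the trachea once, suspended in 40 µL of sterile saline. According to the series text the comparison samples received sterile saline; the sources used here do not give sex, age or any pooling of animals. Nor do they state whether each library is from a mouse of its own, so the tests measure the spread between these samples, which may be technical.

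Cells make cholesterol from acetyl-CoA through the mevalonate pathway, by way of squalene and lanosterol. Transcription of these enzymes is driven mainly by SREBP-2 (encoded by Srebf2), and that of fatty acid enzymes by SREBP-1 (Srebf1). Both are held in the endoplasmic reticulum by Scap and the Insig proteins when sterol is plentiful, and are cleaved and sent to the nucleus when it is scarce. Excess sterol instead activates LXR (Nr1h3 encodes its alpha form), which induces the exporters Abca1 and Abcg1. In the lung, alveolar type 2 cells use these enzymes to build the lipids of surfactant, and macrophages export the sterol they take up with surfactant and dead cells.

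The libraries held between 33698920 and 44000748 mRNA counts. Values below are CPM, counts per 1000000 counts after TMM scaling of library totals. Each fold change sets silicosis against control and carries its standard error (SE) in log2 units. "Rose" and "fell" are used only of genes that passed edgeR's quasi-likelihood test at 0.05 after adjustment over all tested mRNAs. The tissue label was borne out by the surfactant genes: Sftpc, surfactant protein C of alveolar type 2 cells, was between 7553 and 11750 CPM in all libraries. In whole lung, fewer cells of a type and less RNA per cell cannot be told apart.

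Of the 37 genes, 4 rose and 3 fell in silicosis, and 30 did not pass. Those that rose were Abca1, Elovl6, Fasn and Mvd, and those that fell were Pmvk, Nsdhl and Mylip. With library totals as the only scale, under which the median of all tested mRNAs shifted to 0.130 on the log2 scale, 11 were called higher and 1 lower. The share that passed was 18.9%, against 31.8% over all tested mRNAs, where 15.3% rose and 16.5% fell. In 6 of the 37 the silicosis libraries all lay above the controls and in 6 all below, whereas 47.7% of all tested mRNAs had no overlap between the groups. The median log2 fold change was 0.14 over the 37 genes and 0.025 over all tested mRNAs. The share that passed was lower among the 37 than over all tested mRNAs in every alternative analysis except that without N138. With library totals 32.4% of the 37 passed, against 34.0% of all tested mRNAs, and without N138 43.2% passed, against 32.6%. Of the 7, Abca1 and Elovl6 passed in each of 12 alternative analyses.

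The count moved with each library left out. It dropped from 4 to 2 higher without C7, C8, C9, N129 or N136, and no gene was lower without C7, whereas leaving out N138 raised it. Without C7, C8, C9, N129 or N136 the share called over all tested mRNAs also dropped, from 31.8% to between 21.7% and 27.2%. N138 was the lowest of the 3 silicosis libraries for 28 of the 37 genes, or 75.7%, against 37.1% of all tested mRNAs. It was the lowest for all 16 sterol synthesis genes, for 8 of 11 fatty acid genes, but for only 2 of 5 regulators and 2 of 5 efflux and traffic genes. In 18 of the 37 genes both N129 and N136 exceeded all 3 controls (48.6%, against 30.1% of all tested mRNAs), and in 12 of these 18 N138 did not. Without N138, edgeR called 14 of the 37 higher and 2 lower, when 16.2% of all tested mRNAs were called higher and 16.5% lower. The 14 included all 4 that rose with 6 libraries, and the added 10 were Insig1, Hmgcs1, Idi1, Sqle, Cyp51, Msmo1, Ebp, Dhcr7, Acaca and Scd1. Because N138 was the lowest silicosis library for most of the 37 genes, leaving it out raises their fold changes by construction. The calls without N138 therefore show how far the result depends on that library. They are not a separate test of a rise, and neither are the adjusted p-values without N138 given for individual genes below. What sets N138 apart was not tested, and the sources used here give no batch or date of the libraries.

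**Figure D1:**
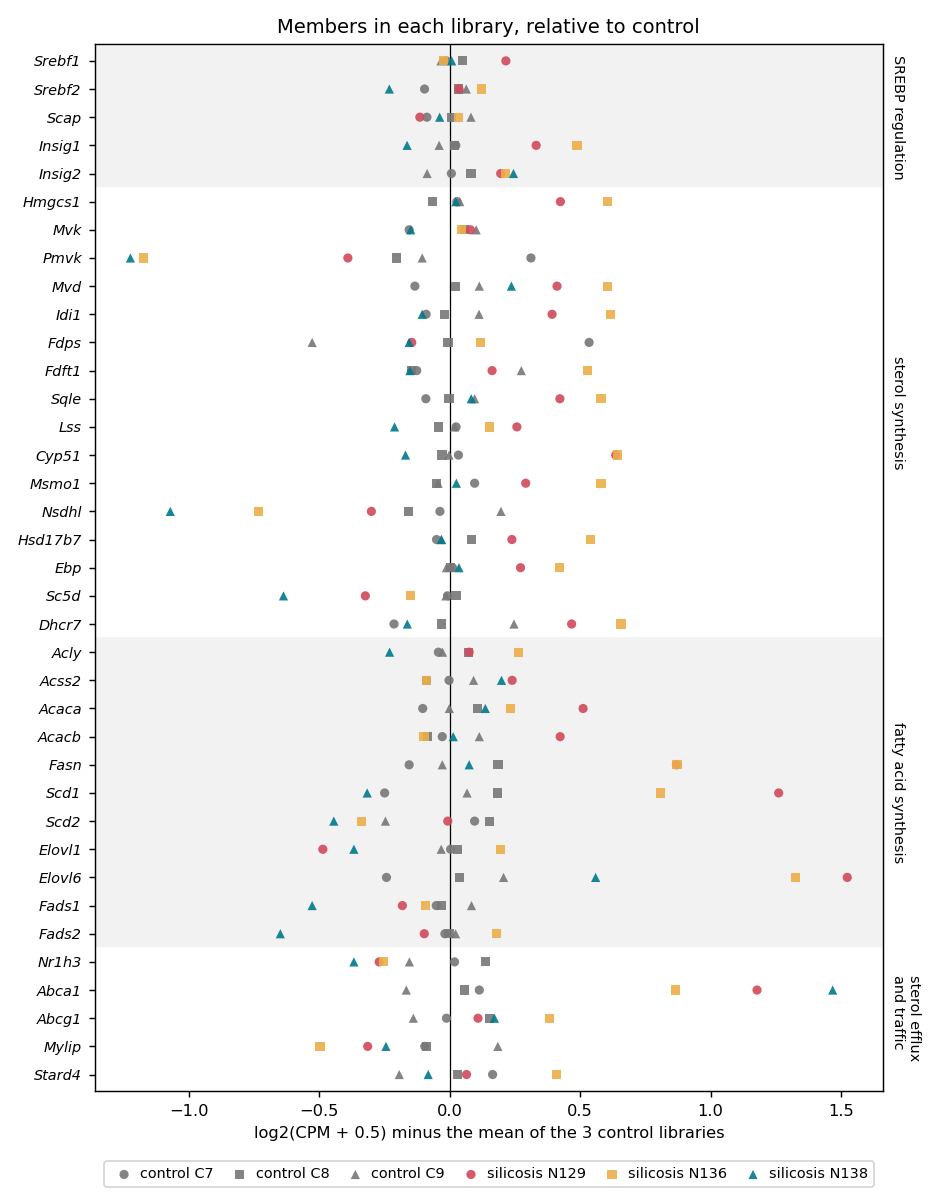
Each of the 37 genes (rows, by group) in each of the 6 libraries, as log2(CPM + 0.5) minus the mean of the 3 control libraries (x axis). In the sterol synthesis rows N129 (red circles) and N136 (yellow squares) lie mostly right of the grey controls, while N138 (teal triangles) is the lowest silicosis library in all 16.

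None of the 5 regulators passed the test, and their log2 fold changes lay between -0.04 and 0.25. Srebf1 was at 128, 133 and 126 CPM in C7, C8 and C9 and at 150, 127 and 130 CPM in N129, N136 and N138. Srebf2 had 236, 259 and 264 CPM in the controls and 259, 275 and 215 CPM in silicosis. The groups overlapped for both, and the 95% intervals of the fold change were 0.907 to 1.22 for Srebf1 and 0.831 to 1.17 for Srebf2. Scap, the sterol-sensing escort of both factors, was at 66.4, 71.0 and 74.8 CPM against 65.2, 72.3 and 68.7 CPM, with a fold change interval of 0.844 to 1.12. These measurements concern mRNA only; cleavage of the proteins, the regulated step, was not measured.

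The Insig proteins retain the Scap complex, and Insig1 is itself a target of SREBP. Insig1 had 87.8, 87.4 and 84.0 CPM in the controls and 109, 121 and 77.1 CPM in N129, N136 and N138. N129 and N136 were above every control and N138 was below every control, so that Insig1 did not pass with 6 libraries (log2 fold change 0.25, SE 0.15, edgeR adjusted p = 0.244) but did without N138 (0.42, adjusted p = 0.0111). Insig2, the form less dependent on SREBP, went from 31.6, 33.2 and 29.5 CPM to 36.0, 36.5 and 37.3 CPM. Its groups did not overlap, N138 being the highest, yet the difference was small and did not pass (log2 fold change 0.22, SE 0.10, adjusted p = 0.113).

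Of the 16 sterol synthesis enzymes 1 rose, 2 fell and 13 did not pass. The share that passed was 18.8%, against 31.8% of all tested mRNAs. In this group 11 fold changes were above and 5 below no change, and the median log2 fold change was 0.27. The entry enzyme of the pathway, Hmgcs1, which makes HMG-CoA, was at 74.7, 70.0 and 75.3 CPM in the controls and at 98.5, 112 and 74.5 CPM in silicosis. N129 and N136 stood above the controls and N138 among them (log2 fold change 0.37, SE 0.14, adjusted p = 0.0706, and 0.52, adjusted p = 0.00513, without N138).

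Next in the pathway, 3 enzymes phosphorylate and decarboxylate mevalonate, and they went different ways. Mvk, mevalonate kinase, was at 16.2 ± 1.55 CPM in control and 16.1 ± 1.39 in silicosis (SD, n = 3). Pmvk, phosphomevalonate kinase, had 24.0, 16.7 and 17.9 CPM in the controls and 14.6, 8.26 and 7.96 CPM in silicosis. All silicosis libraries were below all controls, and Pmvk fell by 0.93 on the log2 scale (SE 0.25, edgeR adjusted p = 0.0198), a call that ended without C7 (adjusted p = 0.0775) or N136 (0.0619). Mvd, mevalonate diphosphate decarboxylase, rose from 10.8, 12.1 and 12.9 CPM to 15.96, 18.3 and 14.1 CPM. Its groups did not overlap either, but the margin between C9 and N138 was narrow, and the call (log2 fold change 0.44, SE 0.14, adjusted p = 0.0450) ended when any library other than N138 was left out and, by a little, with no filter (0.0533).

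The isoprenoid and squalene steps followed. Idi1, which isomerises isopentenyl diphosphate, had 23.4, 24.6 and 27.0 CPM in the controls and 32.9, 38.5 and 23.2 CPM in silicosis, the last of these below every control. Fdft1, squalene synthase, was at 34.9 ± 6.07 against 40.0 ± 9.60 CPM (SD, n = 3), and Fdps, farnesyl diphosphate synthase, at only 3.52 ± 1.46 against 3.20 ± 0.409 CPM. Fdps rested on 83 to 204 counts per library, and its fold change interval of 0.556 to 1.49 was the widest in relation to its size among the sterol enzymes. Sqle, squalene epoxidase and a rate-limiting step, was at 42.8, 45.6 and 48.8 CPM in the controls and 61.3, 68.5 and 48.4 CPM in silicosis. N138 again sat inside the control range (log2 fold change 0.38, SE 0.13, adjusted p = 0.0567, and 0.00738 without N138). Sqle also passed with DESeq2 (0.0443), upper-quartile scaling (0.0438) and library totals (0.0151).

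From lanosterol to cholesterol the pattern of the libraries recurred, with exceptions. Cyp51, lanosterol demethylase, was at 41.8, 39.9 and 40.7 CPM in the controls and 63.7, 64.0 and 36.2 CPM in silicosis. N129 and N136 were far above the tight controls and N138 below them, which gave a log2 fold change of 0.42 (SE 0.19, adjusted p = 0.130) with 6 libraries and 0.65 (adjusted p = 0.00130) without N138. Msmo1, a sterol methyl oxidase, Ebp, the sterol isomerase, and Dhcr7, the last reductase, likewise passed only without N138 among these 2 fits, with log2 fold changes of 0.45, 0.36 and 0.57. Lss, lanosterol synthase, and Hsd17b7, a sterol ketoreductase, passed in neither fit (log2 fold changes 0.08 and 0.27 with 6 libraries).

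The exceptions were Nsdhl, Sc5d and, further up, Pmvk. Nsdhl, which removes methyl groups from lanosterol products, had 16.9, 15.5 and 19.9 CPM in the controls and 14.0, 10.2 and 7.98 CPM in silicosis. The groups did not overlap, and Nsdhl fell by 0.70 on the log2 scale (SE 0.20, adjusted p = 0.0290). This call ended without C7, C9 or N136 (adjusted p = 0.0661, 0.0956 and 0.0727), without N138 (0.0502), and with library totals as the scale (0.0510). Sc5d, the sterol desaturase, was at 60.4, 61.8 and 60.1 CPM against 48.4, 54.7 and 38.9 CPM. All silicosis libraries were below all controls, but the difference missed the threshold (log2 fold change -0.36, SE 0.13, adjusted p = 0.0557). Sc5d passed as lower with DESeq2 (0.0371) and without N136 (0.0177).

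**Figure D2:**
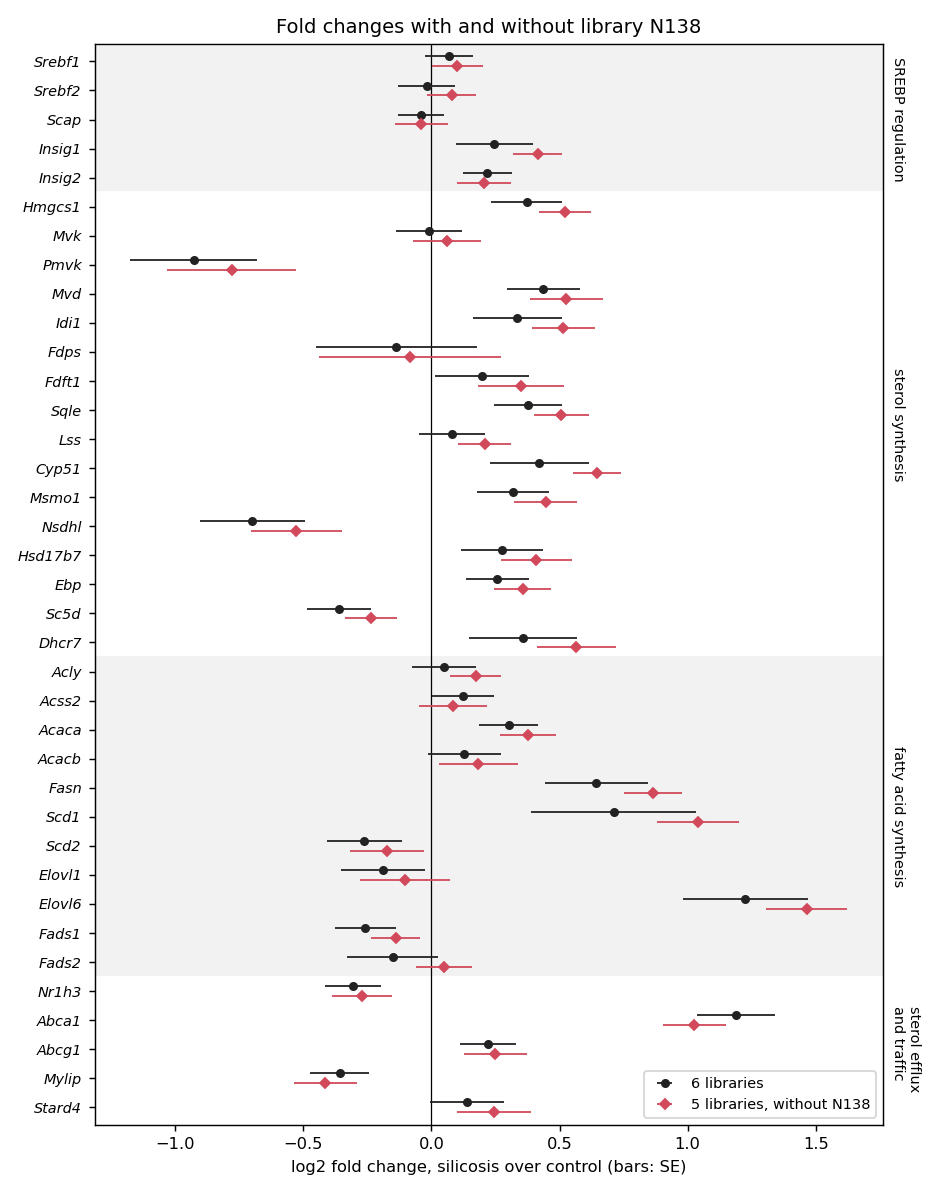
Log2 fold change of silicosis over control (x axis) with its SE for each of the 37 genes, with 6 libraries (black) and without N138 (red). Leaving out N138 moves Cyp51 from 0.42 to 0.65 and Scd1 from 0.71 to 1.04, while Pmvk and Nsdhl are negative in both fits.

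The sequence before the start sites of these enzymes shows a feature that the choice of genes did not use. RefSeq promoters (GRCm38.p6, 250 bases before to 50 after the start) were found for 29 of the 37 genes, and were not matched for Fdps, Fdft1, Sqle, Scd1, Scd2, Fads1, Abcg1 and Stard4. The letters CCAAT, the core of the NF-Y box, were searched on both strands, as were TCACNCCAC (the core of the sterol regulatory element, which SREBP binds), GGGCGG (a GC box), CACGTG (an E-box) and AGGTCA repeated after a spacer of 4 bases (the DR4 element of LXR). NF-Y is a general activator known to work beside SREBP. Over the whole window CCAAT was present for 23 of the 29 genes, against 42.2% of the 12418 tested mRNAs with a promoter. Among bases before the start only, it was present for all 13 sterol synthesis genes with a promoter, 4 of 5 regulators, 4 of 8 fatty acid genes and 1 of 3 efflux and traffic genes. That made 22 of 29, against 39.7% of tested mRNAs. A gene was counted if any of its promoters held the letters. Per promoter, CCAAT lay before the start in 23 of 39 promoters of these genes, against 33.8% of all promoters. Among the genes printed below, Dhcr7 and Pmvk also have promoters without CCAAT. The Dhcr7 stretch is from the promoter of that gene that lies farthest downstream. The other letters were counted before the start as well. The exact TCACNCCAC was found in 1 of the 29, Hmgcs1, and in 1.27% of tested mRNAs; degenerate forms were not searched. GGGCGG was found for 23 of 29 before the start, against 58.8%, CACGTG for 6 against 9.01%, and the DR4 letters for 0, as for 0 of the 12418 tested mRNAs, so that nothing can be read from their absence. In 1 promoter of these genes a CCAAT match overlapped another motif.

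The stretches below show the matches for the sterol enzymes and Insig1 that were higher without N138, for Fasn, and for Pmvk and Nsdhl, which fell. Capitals mark CCAAT, read as ATTGG where it lies on the other strand, and in Hmgcs1 also the sterol regulatory element core at 137 bases before the start. All are GRCm38.p6, 5′ to 3′ on the strand of the gene, and lie before the annotated start in the promoter.
Hmgcs1, chr13:119690101-119690325, plus strand: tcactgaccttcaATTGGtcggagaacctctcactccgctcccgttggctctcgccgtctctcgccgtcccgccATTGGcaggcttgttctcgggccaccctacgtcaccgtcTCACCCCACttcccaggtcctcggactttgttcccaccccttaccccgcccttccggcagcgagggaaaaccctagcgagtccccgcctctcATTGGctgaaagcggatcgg
Mvd, chr8:122443430-122443497, minus strand: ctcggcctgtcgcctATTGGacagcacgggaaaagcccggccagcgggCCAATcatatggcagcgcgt
Idi1, chr13:8885546-8885605, plus strand: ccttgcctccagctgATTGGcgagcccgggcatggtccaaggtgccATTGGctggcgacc
Cyp51, chr5:4104707-4104741, minus strand: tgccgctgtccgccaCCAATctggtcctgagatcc
Msmo1, chr8:64733614-64733753, minus strand: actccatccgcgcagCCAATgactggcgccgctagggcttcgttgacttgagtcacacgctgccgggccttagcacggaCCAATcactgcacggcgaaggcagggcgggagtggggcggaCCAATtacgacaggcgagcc
Ebp, chrX:8193548-8193697, minus strand: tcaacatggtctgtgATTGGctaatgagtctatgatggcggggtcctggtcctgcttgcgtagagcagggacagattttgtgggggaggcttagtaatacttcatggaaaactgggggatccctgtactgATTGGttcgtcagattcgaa
Dhcr7, chr7:143830114-143830184, plus strand: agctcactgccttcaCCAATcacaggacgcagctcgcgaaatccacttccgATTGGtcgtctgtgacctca
Insig1, chr5:28071181-28071215, plus strand: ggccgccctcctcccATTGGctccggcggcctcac
Fasn, chr11:120824587-120824652, minus strand: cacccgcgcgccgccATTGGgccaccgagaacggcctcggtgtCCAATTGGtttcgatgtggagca
Pmvk, chr3:89454390-89454424, plus strand: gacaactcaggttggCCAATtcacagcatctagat
Nsdhl, chrX:72918397-72918520, plus strand: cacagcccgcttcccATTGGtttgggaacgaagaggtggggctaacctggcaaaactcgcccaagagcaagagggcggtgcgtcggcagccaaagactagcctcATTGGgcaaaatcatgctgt

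Hmgcs1, Msmo1 and Fasn each carry 3 CCAAT matches in the stretch shown (the last with CCAATTGG, a match on both strands), and Mvd, Idi1, Ebp and Dhcr7 carry 2. Nsdhl, which fell, carries 2 as well, and Pmvk carries 1, so the letters occurred both in enzymes that were higher, with or without N138, and in enzymes that were lower. Stretches are shown only for some of the genes with a match. CCAAT also lay before the start in Mvk, Lss, Hsd17b7 and Sc5d, which passed neither with 6 libraries nor without N138. Mvk held more matches than any stretch shown. No CCAAT was found in the promoters of Elovl6 and Abca1, which rose, or of Acaca, which was higher without N138. Mylip, which fell, had matches. A match is a description of the sequence and not a bound site.

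Fatty acid genes showed the steepest rise of any enzyme in the set and also a number of small, mixed differences. Of 11 genes, 2 rose, 0 fell and 9 missed the threshold. The share that passed was 18.2%, against 31.8% of all tested mRNAs. The group had a median log2 fold change of 0.12. Elovl6, which elongates palmitate towards stearate, was at 7.80, 9.57 and 10.8 CPM in the controls and at 27.7, 24.1 and 14.0 CPM in N129, N136 and N138. The groups did not overlap, and Elovl6 rose by 1.22 on the log2 scale (SE 0.24, edgeR adjusted p = 0.00534), with values between 1.02 and 1.46 over the 12 alternatives. N138 showed the smallest rise of the 3 silicosis libraries.

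Fasn, fatty acid synthase, had 771, 977 and 843 CPM in the controls and 1571, 1572 and 905 CPM in silicosis. N129 and N136 were nearly equal and above every control, and N138 lay between C9 and C8. Fasn rose by 0.64 (SE 0.20, adjusted p = 0.0381), but the call ended without C7, C8, C9, N129 or N136, at adjusted p between 0.0573 and 0.127; without N138 the log2 fold change was 0.87 (adjusted p = 7.38e-04). Scd1, the main stearoyl-CoA desaturase of lipogenic cells, was at 1837, 2481 and 2287 CPM against 5235, 3825 and 1753 CPM. N129 was the highest library and N138 the lowest of all 6, and Scd1 did not pass (log2 fold change 0.71, SE 0.32, adjusted p = 0.125) except without N138 (1.04, adjusted p = 0.00166).

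The related desaturase Scd2 did not follow Scd1. Scd2 was at 1003, 1044 and 791 CPM in the controls and 934, 743 and 690 CPM in silicosis, and its log2 fold change was -0.26 (SE 0.15, adjusted p = 0.204). Of 50-base windows along Scd1 and Scd2, 4.60% and 3.88% were also found in transcripts of other genes, so most of each sequence tells them apart. Acaca, the acetyl-CoA carboxylase of the cytosol, had 168, 194 and 180 CPM against 257, 212 and 198 CPM, a narrow separation without overlap that did not pass (log2 fold change 0.30, SE 0.12, adjusted p = 0.0768). Acly, which supplies cytosolic acetyl-CoA from citrate, was at 324 ± 14.3 against 335 ± 56.7 CPM, and Acacb, the mitochondrial carboxylase, at 36.3 ± 2.64 against 39.7 ± 7.94 CPM (SD, n = 3). Acss2, which makes acetyl-CoA from acetate, was at 25.9 ± 1.64 against 28.2 ± 3.43 CPM.

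None of the 3 remaining enzymes, which act on very long and polyunsaturated fatty acids, passed with 6 libraries. Fads1, a front-end desaturase of polyunsaturated fatty acids, went from 147, 149 and 161 CPM to 134, 142 and 105 CPM. Its groups did not overlap, N138 being well below the rest, and the log2 fold change of -0.26 (SE 0.12) had an adjusted p of 0.131 by edgeR. Fads2, the other front-end desaturase, had tight controls of 75.5, 76.3 and 77.7 CPM and scattered silicosis values of 71.4, 86.6 and 48.6 CPM. Elovl1, which makes very long saturated chains, was at 215, 219 and 209 CPM in the controls and 153, 245 and 166 CPM in silicosis. For Fads2 and Elovl1 the silicosis libraries lay on both sides of the controls, and without N136 Elovl1 passed as lower (adjusted p = 0.00916).

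**Figure D3:**
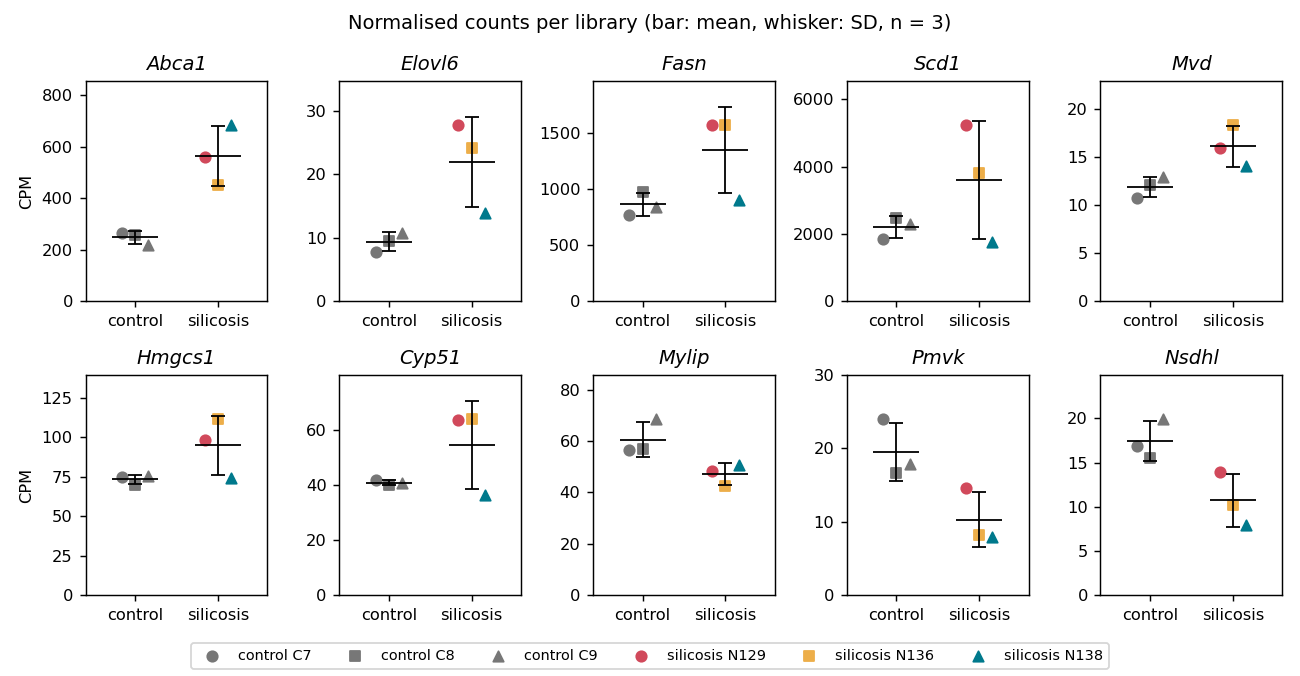
CPM of 10 genes in each library (points), with mean and SD of the 3 libraries per group. Abca1 is high in all silicosis libraries and highest in N138 at 684 CPM, whereas Fasn, Scd1, Hmgcs1 and Cyp51 are high in N129 and N136 and near the controls in N138.

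The clearest difference in the set was that of the sterol exporter Abca1. Abca1, which loads cholesterol onto apolipoprotein A-I, was at 267, 256 and 220 CPM in the controls and 559, 450 and 684 CPM in silicosis. Every silicosis library was far above every control, and Abca1 rose by 1.19 on the log2 scale (SE 0.15, edgeR adjusted p = 6.53e-04), a 2.28-fold rise that lay between 1.03 and 1.32 on the log2 scale over the 12 alternatives. N138, the lowest silicosis library for the sterol enzymes, was the highest for Abca1. Abcg1, which exports sterol to HDL and is abundant in alveolar macrophages, had 195, 219 and 178 CPM against 212, 256 and 221 CPM. Its groups overlapped and it did not pass (log2 fold change 0.22, SE 0.11, adjusted p = 0.161).

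None of the other 4 genes of efflux and traffic rose. Nr1h3, which encodes the alpha form of LXR, went from 39.3, 42.7 and 34.8 CPM to 32.1, 32.5 and 30.0 CPM. All silicosis libraries were below all controls, with a log2 fold change of -0.31 (SE 0.11, adjusted p = 0.0584). Nr1h3 passed as lower with DESeq2 (0.0463) and without C9 (0.0335). Mylip, an LXR-induced ubiquitin ligase that degrades lipoprotein receptors, was at 56.4, 56.7 and 68.7 CPM against 48.4, 42.6 and 50.9 CPM. It fell by 0.36 (SE 0.12, adjusted p = 0.0410), but the call ended without C7, C8, C9, N129 or N136 (adjusted p between 0.0618 and 0.120), with library totals (0.151) and with upper-quartile scaling (0.0542). Stard4, a carrier of sterol between membranes and a known SREBP target, was at 66.8, 60.8 and 52.0 CPM against 62.3, 79.3 and 56.2 CPM, with overlapping groups and no call.

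In the authors' deposited table, which has no replicate values of its own, 5 of the 37 genes were higher and 5 lower at an adjusted p under 0.05. The DESeq2 fit made here called 27.0% of the 37 and 32.8% of all tested mRNAs. Beyond the 7 above, the authors' deposited table gives Sqle (log2 fold change 0.37, adjusted p = 0.0452) as higher and Sc5d (-0.37, 0.0378) and Nr1h3 (-0.31, 0.0472) as lower. Its column of marked changes lists 2 of the 37 as up, Elovl6 and Abca1, and 0 as down.

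Markers of the cell types that carry these pathways were compared across the same libraries. Of all tested mRNAs 15.3% rose and 16.5% fell, which is the background for the marker counts here and below. The summed CPM of 15 alveolar type 2 markers was 19500 to 22930 in the controls and 19470, 27770 and 18350 in N129, N136 and N138; 1 of the 15 rose, 2 fell, and none was at 0 in any group. The sum is carried by Sftpc and a few other abundant genes, and N138 was the lowest library for only 5 of the 15 markers. The summed CPM of 12 markers of lipid-laden macrophages was 735 to 869 in the controls and 2638, 4454 and 3070 in silicosis, with 11 of 12 higher and none at 0. Of 10 resident alveolar macrophage markers, 1 rose and 6 fell. Their sum was 482 to 590 CPM in the controls and 407, 403 and 697 CPM in N129, N136 and N138, so that N138 alone lay above the controls. Yet in 6 of the 10 every silicosis library, N138 included, lay below every control, and in 1 every silicosis library lay above. The higher sum of N138 therefore rests on the markers other than those 6. The part of these cells in the differences of Abca1 and of the synthesis genes was not tested.

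Adipocytes, which make fatty acids with the same enzymes, were also looked for. The test could be run on 13 of 15 adipocyte markers, of which 8 rose and 0 fell. Their sum was 80.05 to 107 CPM in the controls and 292, 151 and 148 CPM in N129, N136 and N138. Adipoq, adiponectin, was chosen with its values known and was at 0.248, 0.479 and 1.41 CPM in the controls and 15.8, 7.68 and 5.06 CPM in silicosis. Ucp1, the uncoupling protein of brown fat, was at 0 in the controls and at 5.35, 0.229 and 0.0556 CPM in silicosis. N129 was the highest library for these markers and for Scd1, Elovl6, Acaca, Acacb, Acss2, Lss and Srebf1, and the part of adipocytes in those values was not tested.

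Structural and other immune cells moved as well. Of 10 resting fibroblast and lipofibroblast markers 8 fell and 1 rose (1850 to 2227 CPM in silicosis against 4046 to 4276), and of 12 endothelial markers 9 fell (3469 to 3699 against 5805 to 5938). The fibroblast marker that rose was Plin2, which is counted again below among genes of triglyceride and phospholipid synthesis. Of 12 epithelial markers 2 rose and 3 fell, with sums of 5814 to 9053 against 11500 to 18790 CPM. Most of that sum is Scgb1a1, the club cell secretory protein, which fell from 9755, 11000 and 16840 CPM to 5046, 3955 and 7622 CPM; the other 11 markers summed to 1431 to 1858 against 1742 to 2042 CPM. Of 10 neutrophil markers 5 rose, with sums of 416 to 512 against 108 to 206 CPM. None of these markers was at 0 throughout a group, and their part in the results was not tested.

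**Figure D4:**
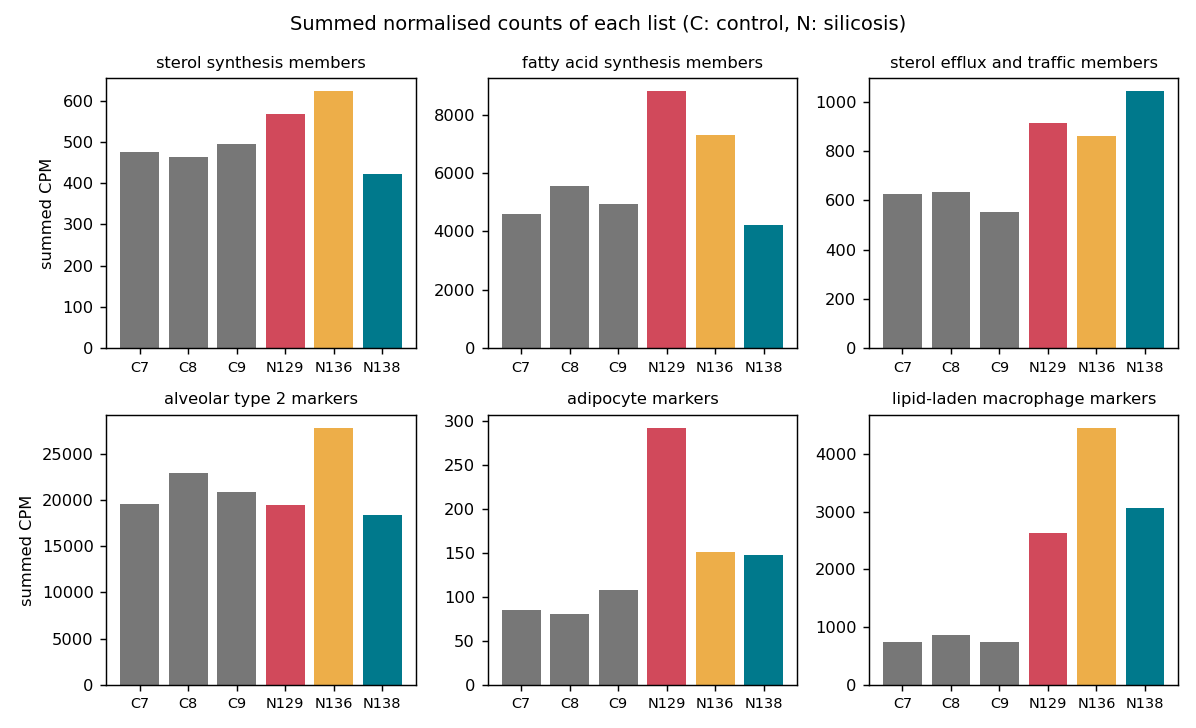
Summed CPM per library of 3 groups of the 37 genes (top) and of 3 marker lists (bottom). The sums of sterol and fatty acid synthesis genes are lowest in N138, that of efflux and traffic genes is highest there (1042 CPM), adipocyte markers are highest in N129 and lipid-laden macrophage markers are high in all 3 silicosis libraries.

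Genes next to the set in the same pathways were read from further lists. In the order given below, the shares that passed were 11.1%, 8.33%, 41.7% and 42.1%, against 31.8% of all tested mRNAs. Of 9 other sterol and isoprenoid genes tested, 1 rose and 0 fell: Nus1, which helps make dolichol, rose by 0.55 on the log2 scale (SE 0.14). Of 12 genes that process or degrade the SREBP machinery, 1 rose and 0 fell: Rnf139, an ubiquitin ligase of the endoplasmic reticulum, rose by 0.45 (SE 0.10). Of 24 other genes of fatty acid synthesis and elongation 6 rose and 4 fell. Me1, malic enzyme and a source of the NADPH that Fasn and sterol enzymes consume, went from 61.9, 64.9 and 66.0 CPM to 121, 147 and 101.1 CPM (log2 fold change 0.94, SE 0.13, adjusted p = 9.87e-04), whereas Tecr, the last reductase of the elongation cycle, fell by 0.80 (SE 0.12). Thrsp, a lipogenic cofactor chosen with its values known, was at 1.53 to 2.53 CPM in the controls and 19.6, 7.75 and 3.005 CPM in N129, N136 and N138, the same order of silicosis libraries as Scd1. Of 19 genes of triglyceride and phospholipid synthesis 5 rose and 3 fell: Plin2, a coat protein of lipid droplets, rose by 1.31 on the log2 scale and Dgat1, which completes triglycerides, rose by 0.55.

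Sterol handling and uptake were read in the same way. Of 24 genes of LXR partners and sterol handling 7 rose, 5 fell and 12 did not pass. The share that passed was above the 31.8% of all tested mRNAs. Cyp7b1, an oxysterol hydroxylase, went from 4.52, 5.15 and 4.49 CPM to 17.7, 22.6 and 15.8 CPM (log2 fold change 1.99, SE 0.17, adjusted p = 1.03e-04), and Osbpl8, a lipid exchanger at membrane contacts, rose by 0.86 (SE 0.09). Ch25h, which makes 25-hydroxycholesterol (a brake on SREBP cleavage), and Apoe, the sterol-carrying apolipoprotein and an LXR target, were singled out after their values were seen. Ch25h was at 2.21, 4.76 and 2.22 CPM in the controls and 13.6, 17.8 and 8.21 CPM in silicosis, and rose by 2.10 (SE 0.37). Apoe fell by 0.88, in the opposite direction to Abca1. Of 15 uptake genes 7 rose and 3 fell, so that 66.7% passed, against 31.8% of all tested mRNAs. Msr1, the scavenger receptor of macrophages for modified lipoproteins, rose by 3.78 (SE 0.19), and Lpl, lipoprotein lipase, rose by 1.17 (SE 0.13).

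Levels can be compared between genes only per length. Per kilobase of annotated exon in control lung, Scd1 was the most abundant of the 37 at 450 ± 67.5 CPM, followed by Scd2 at 173 ± 24.8, Fasn at 78.9 ± 9.54, Elovl1 at 78.6 ± 1.69 and Acly at 61.4 ± 2.70 (SD, n = 3). Fasn and Elovl1 did not differ beyond their spread. The most abundant sterol enzyme was Hmgcs1 at 15.97 ± 0.627 CPM per kilobase, and Fdps was the least at 0.837 ± 0.347. Elovl6 was the next lowest, at 1.46 ± 0.237 in control and 3.41 ± 1.11 in silicosis, so the enzyme with the steepest rise started from one of the lowest levels. The exporter Abca1 went from 23.9 ± 2.39 to 54.4 ± 11.3 CPM per kilobase and thereby passed Abcg1, which was at 27.0 ± 2.77 and 31.5 ± 3.22.

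**Figure D5:**
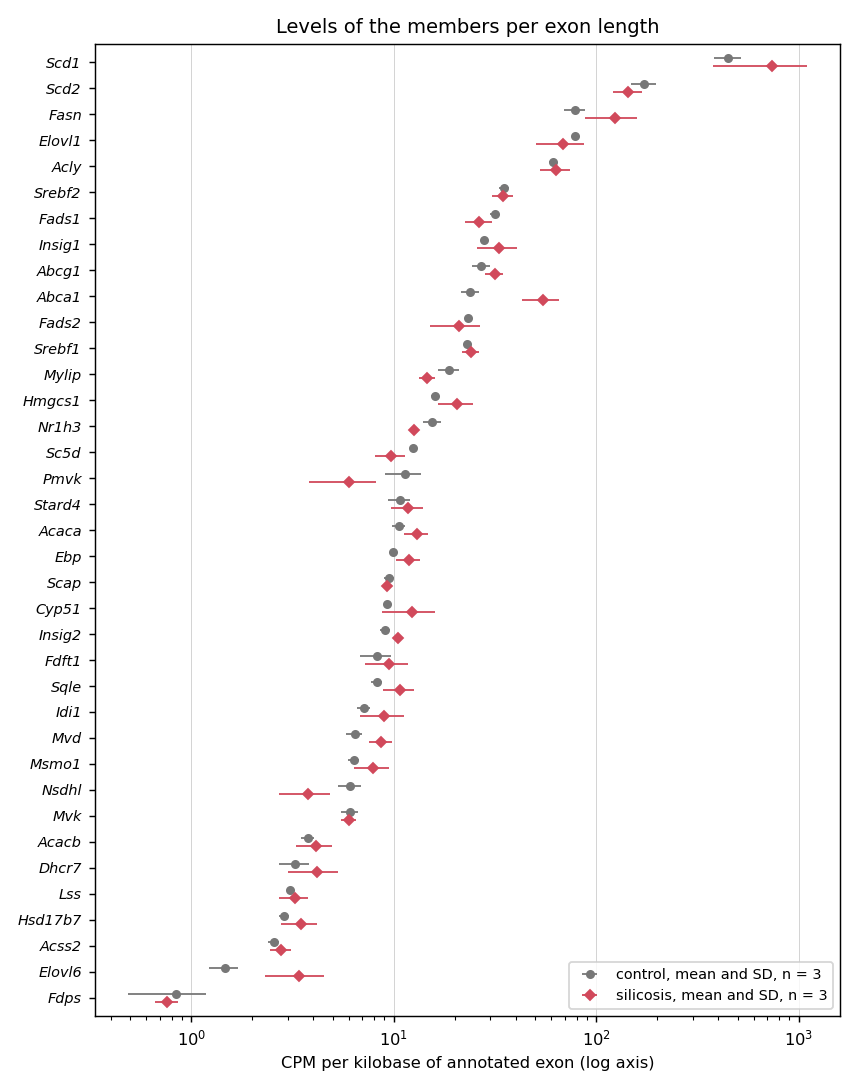
CPM per kilobase of annotated exon (log axis) of the 37 genes, ordered by their level in control lung, with mean and SD of 3 libraries per group. The lipogenic enzymes Scd1, Scd2, Fasn, Elovl1 and Acly lead the order, and Abca1, Elovl6, Pmvk and Nsdhl are the genes whose group means lie farthest apart beside Scd1 and Fasn.

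Some counts are less certain because transcripts share sequence. At least 10% of 50-base windows were also found in transcripts of other genes for Acaca (52.6%), Fdft1 (31.0%), Idi1 (30.5%), Hmgcs1 (13.5%), Scap (13.0%) and Fdps (11.9%), and for the other 31 genes the share was 8.29% or less. The 7 genes that rose or fell were all among the latter. Without a stated strand setting, reads of an overlapping antisense gene cannot be told from those of the gene itself.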

How the data were processed

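The authors deposited raw counts of reads per mRNA for 6 libraries. A second deposited table of the authors holds their log2 fold changes and adjusted p-values. The submitters' processing notes name the GRCm39 build and, without role or order, featureCounts 2.0.0, DESeq2 1.36.0, Bowtie2, HISAT2 and Trimmomatic 0.39; the strand setting and annotation were not given in the sources used here. Libraries were grouped by their labels.

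Counts were filtered with filterByExpr at its default settings, scaled by TMM and compared between the groups with the quasi-likelihood test of edgeR 4.0.16 (R 4.3.3), with Benjamini-Hochberg adjustment over all tested mRNAs and a threshold of 0.05. The scripts were tested on simulated data. Alternatives were DESeq2 size factors, library totals, upper-quartile scaling, no filter, DESeq2 1.42.0, limma-voom (limma 3.58.1) and leaving out each library. Exon lengths and shared windows came from GENCODE M21 on GRCm38, which differs from the authors' build, and promoters from RefSeq.

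The members and lists were chosen with earlier results of these data known. All 37 genes are named. From each further pathway list the 2 called genes with the lowest p were named, or the most expressed gene where none was called; marker lists are given by counts, sums and members at 0 throughout a group (Ucp1). Thrsp, Ch25h, Apoe, Sftpc, Adipoq and Scgb1a1 were added after their values were seen. Counts of circular and long noncoding RNA were not used here.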

Additional observations from a re-analysis of the deposited data

How the results depend on the processing

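No result for the 37 genes reversed its direction as a call under any alternative. With library totals only, 11 genes were higher and 1 lower: among regulators 1 was higher, among sterol synthesis genes 5 were higher and 1 lower, and among efflux and traffic genes 2 were higher and 0 lower. Upper-quartile scaling gave 2 sterol synthesis genes higher and 0 efflux and traffic genes lower. Without a filter 0 sterol synthesis genes were higher, Mvd having an adjusted p of 0.0533. DESeq2 called 5 genes lower, with 2 sterol synthesis genes higher and 2 efflux and traffic genes lower. When each library was left out in turn, between 2 and 14 genes were higher and between 0 and 2 lower. The ranges were 0 to 1 higher among regulators, 0 to 8 higher and 0 to 2 lower among sterol synthesis genes, 1 to 4 higher and 0 to 1 lower among fatty acid genes, and 0 to 1 lower among efflux and traffic genes. The highest counts came without N138 and the count of 2 without any other library; 0 were lower without C7. For most of the 37 genes N138 was the lowest silicosis library, so leaving it out raises their fold changes by construction. The causes of these shifts were otherwise not tested. Leaving out a library also leaves fewer samples. The share called over all tested mRNAs was then between 21.7% and 32.6%, against 31.8% with 6 libraries. No paired analysis was possible because the groups share no replicate number. With 3 libraries a group, small differences such as those of the regulators are bounded only by the intervals given.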
